A study of Mus musculus with 8 samples.

Results

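The enzymes that glycosylate and cleave Notch receptors, and a pair of Notch ligands, were examined in splenic B cells with and without the transcription factor Irf4. The set holds 9 genes, chosen by name for their roles, with earlier results of these data known. These are the Fringe glycosyltransferases Lfng, Mfng and Rfng, the ADAM proteases Adam10 and Adam17, the gamma-secretase subunits Psen2 and Ncstn, and the ligands Dll1 and Jag1. They are read by 20 probe sets that name 1 gene only, of 45101 probe sets on the array and of 18193 genes named by such a probe set. Mature B cells came from the spleens of C57BL/6 mice aged 12 weeks, either irf4-/- (Irf4 null, n = 4 arrays) or irf4+/+ littermates (wild type, n = 4 arrays), and were enriched by magnetic removal of other cells. No treatment is given in the labels, the sources used here do not give the deleted exons of the null allele, and nothing in the labels ties an array to a single animal. The p-values therefore refer to the spread between arrays, which may be technical. The labels restrict the deletion to no cell type. In bulk RNA, fewer cells of a B cell subset and less RNA per cell cannot be told apart.

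Notch receptors are cut in sequence once a ligand on a neighbouring cell has bound. An ADAM metalloprotease, chiefly Adam10 for ligand-driven signalling, sheds the ectodomain, and the gamma-secretase complex, with a presenilin as its catalytic subunit and nicastrin (Ncstn) as a structural one, then frees the intracellular domain, which enters the nucleus and binds the DNA-binding protein RBPJ. Fringe enzymes act earlier, in the Golgi, where they add N-acetylglucosamine to O-fucose on the EGF repeats of Notch and so tune its response to Delta-like and Jagged ligands. In the mouse spleen, marginal zone B cells need Notch2, Adam10 in the B cells and Dll1 on stromal cells, and Lfng and Mfng together raise the fitness of their precursors for Dll1.

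The 250 bases before the transcription start, from RefSeq on GRCm38.p6, are shown for 3 of the genes. Lfng (chr5:140607091-140607340, plus strand) is shown because it held matches to the RBPJ core, Adam17 (chr12:21373633-21373882, minus strand) because it was the only one of the 9 genes with a probe set past the test, and Adam10 (chr9:70678732-70678981, plus strand) as the related protease with none. Capitals mark TGGGAA, the RBPJ core, on either strand.
Lfng: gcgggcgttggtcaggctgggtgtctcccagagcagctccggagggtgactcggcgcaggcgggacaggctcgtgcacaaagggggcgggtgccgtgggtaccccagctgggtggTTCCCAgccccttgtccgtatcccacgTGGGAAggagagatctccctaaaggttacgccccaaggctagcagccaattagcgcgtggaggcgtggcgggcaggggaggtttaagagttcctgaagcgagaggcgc
Adam17: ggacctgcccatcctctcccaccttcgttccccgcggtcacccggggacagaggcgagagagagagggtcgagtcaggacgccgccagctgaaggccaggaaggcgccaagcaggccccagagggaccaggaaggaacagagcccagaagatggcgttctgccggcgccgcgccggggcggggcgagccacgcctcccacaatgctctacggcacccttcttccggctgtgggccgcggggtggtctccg
Adam10: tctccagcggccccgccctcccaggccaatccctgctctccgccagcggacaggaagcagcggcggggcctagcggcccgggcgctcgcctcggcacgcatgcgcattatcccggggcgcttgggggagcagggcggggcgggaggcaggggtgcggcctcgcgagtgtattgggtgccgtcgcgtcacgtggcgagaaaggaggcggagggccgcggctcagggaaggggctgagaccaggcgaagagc
Windows were found for Lfng, Rfng, Adam10, Adam17, Psen2, Ncstn, Dll1 and Jag1, 10 in all, and not for Mfng. Lfng held 2 matches to TGGGAA, starting 135 and 108 bases before the start, the window of the second Psen2 start held 1, and the other 8 windows held none. This core occurs in 21.6% of the 32851 RefSeq promoter windows of the same length. An interferon-response element (GAAA, 2 bases of any kind, GAAA) and a composite Ets-IRF element (GGAA, 2 bases of any kind, GAAA), which can overlap each other and the RBPJ core, were sought on both strands, were in none of the 10 windows, and occur in 2.98% and 2.3% of all windows. A match is a string of letters and no evidence of binding.

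The arrays were scaled alike, and they differed in more than genotype. The trimmed mean signal was 500.003 on every array, medians lay between 76.9 and 92.2, and arrays correlated at 0.960 to 0.982 over the 27022 probe sets tested. The brighter Irf4 probe set read 244 to 315 on Irf4 null arrays and 1720 to 2341 on wild-type arrays. Among B cell markers, Ms4a1, which encodes CD20, read 24134 to 25110 on Irf4 null arrays and 23056 to 26118 on wild-type arrays, and none of the 7 tested markers passed (limma; 0 at an unadjusted p below 0.05). The smallest adjusted p-values among them were those of Ebf1, a transcription factor of B cell identity, at -0.20 ± 0.11 on the log2 scale (adjusted p = 0.405), and of the B cell receptor gene Cd79b, at -0.096 ± 0.079 (adjusted p = 0.601). Xist, the RNA of the inactive X chromosome, was high (17119 to 19652) on Irf4 null array 1 and wild-type arrays 1, 3 and 4, and low (49.2 to 94.8) on Irf4 null arrays 2, 3 and 4 and wild-type array 2. The mean log2 signal of 66 markers of T, NK, myeloid, erythroid, platelet, endothelial and stromal cells moved with that split, at 7.84, 8.73, 8.84 and 8.30 on Irf4 null arrays 1 to 4 and 7.60, 8.55, 7.65 and 7.56 on wild-type arrays 1 to 4. Of 57 tested markers 3 were called higher in Irf4 null (Prf1, Ppbp and Vwf, by 1.33, 0.81 and 1.03 on the log2 scale), against 2.67% of all genes. None was called lower, against 1.7% of all genes, and none was at 0. At an unadjusted p below 0.05 (limma) were 9 of 15 T and NK cell markers, with a median log2 fold change of 0.92. So were 5 of 10 erythroid and platelet markers (median 0.35) and 1 of 8 endothelial and stromal markers (median 0.063). Over all genes the share was 20.3%. Those 5 were the platelet genes Pf4, Ppbp, Itga2b, Gp1bb and Gp9. The erythroid genes Alas2, Klf1, Slc4a1, Epor and Tfrc were not among them. None of the 24 myeloid markers passed (limma, with 3 at an unadjusted p below 0.05). Their median was 0.71, and 0.086 with Xist status as a term. Lowest by adjusted p were the macrophage genes Adgre1 at 0.88 ± 0.27 (adjusted p = 0.109) and Fcgr1 at 1.28 ± 0.41 (adjusted p = 0.125). With Xist status as a term they were at 0.44 and 0.59. The macrophage genes did not share a direction. Csf1r and Cd68 stood at 0.68 and 0.38, and C1qa, C1qb, C1qc and Vcam1 at -0.51, -0.24, -0.73 and -0.10. With Xist status as a term these stood, in the same order, at -0.18, -0.31, -1.14, -0.79, -1.36 and -1.03. The listed neutrophil genes were all higher in Irf4 null, from 0.65 ± 0.43 for Csf3r to 1.87 ± 0.94 for Ltf. S100a8 and Camp stood between them at 1.26 ± 0.69 and 1.70 ± 0.88. With Xist status as a term Csf3r, Ltf, S100a8 and Camp were at -0.06, 0.26, 0.13 and 0.20. The part of cells other than B cells in the results below was not tested beyond the fits with Xist status or the mean of the 66 markers as a term.

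Little difference was detected in the RNAs of the 9 genes between Irf4 null and wild-type B cells. Of the 20 probe sets, 18 passed the filter on dim signals (mean signal above 42.9), and the remaining 2, the dimmer ones of Lfng and Rfng, were not tested. None of the 18 was called higher, 1 was called lower, the dimmest Adam17 probe set, and 17 did not pass (limma, adjusted p below 0.05 over all 27022 probe sets, of which 3.52% passed, 2.01% higher and 1.51% lower). The same Adam17 probe set was the 1 of 18 whose groups did not overlap, against 10.8% of all probe sets. At an unadjusted p below 0.05 there were 3 of the 18, which are 2 Adam17 probe sets and the brighter Ncstn probe set, against 17.1% of all probe sets. With each gene represented by its brightest probe set, none of the 9 genes passed (limma; 1, Ncstn, at an unadjusted p below 0.05, against 20.3% of all genes), while 4.37% of the 11802 genes did. The median log2 fold change of Irf4 null over wild type was -0.036 over the 9 genes and 0.025 over all genes. For 6 of the 9 (Lfng, Mfng, Rfng, Adam10, Adam17 and Psen2) the unadjusted 95% interval at the brightest probe set lay within 1.5-fold either way. That of the called Adam17 probe set did not, at -0.63 to -0.20 on the log2 scale.

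**Figure D1:**
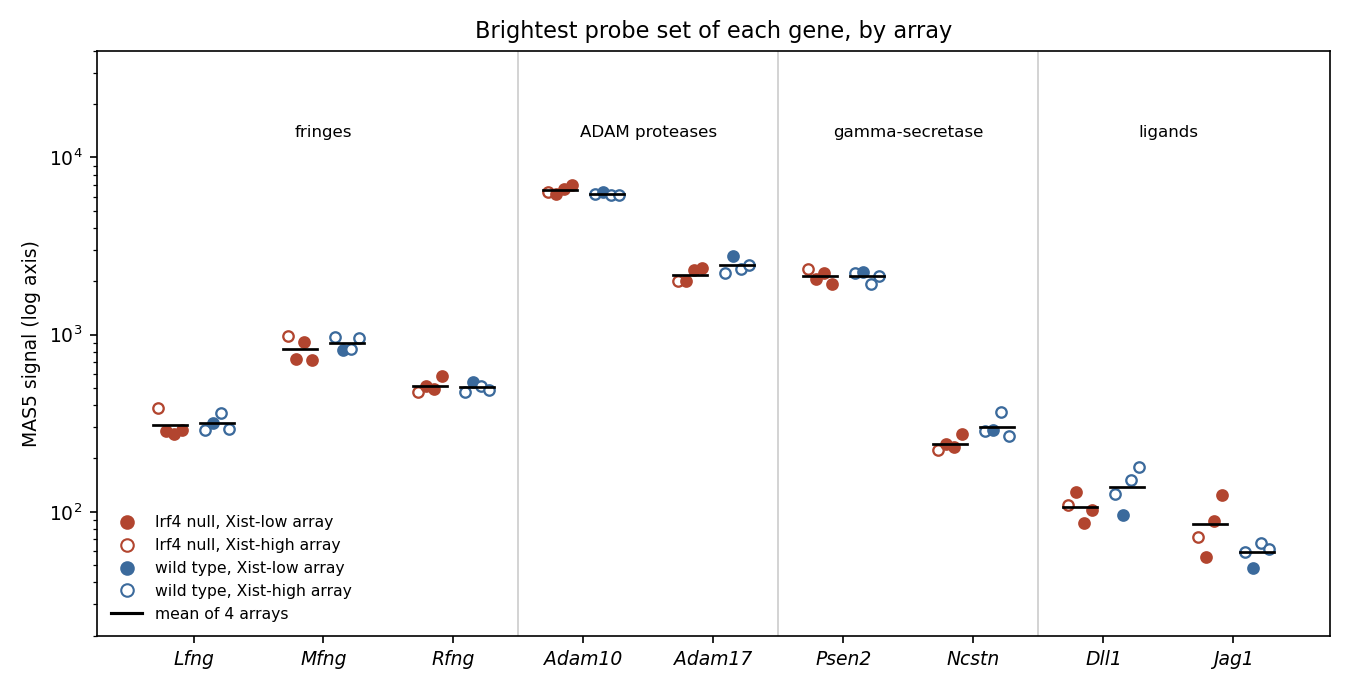
MAS5 signal (log axis) of the brightest probe set of each gene on each array, Irf4 null to the left of wild type, with lines at the means of 4 arrays. Filled points are Xist-low and open points Xist-high arrays, the groups overlap for all 9 genes, and signals of different genes are not comparable because probe sets differ in brightness.

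Lfng encodes lunatic fringe. It read 383, 285, 276 and 291 on Irf4 null arrays 1 to 4, against 288, 318, 361 and 295 on wild-type arrays 1 to 4. The highest value of all 8 was that of Irf4 null array 1, Irf4 null arrays 2 and 3 lay below the wild-type range, and array 4 lay inside it. The log2 fold change was -0.036 ± 0.14 (SE; limma, adjusted p = 0.931), with a 95% interval of -0.34 to 0.26. Without Irf4 null array 1 it was -0.14 (adjusted p = 0.65), and among the Xist-high arrays alone, where that array is the only Irf4 null one and is assumed to vary like the others, it was 0.28 (adjusted p = 0.673). The second Lfng probe set was dim, at 9.57 to 30.8 on Irf4 null arrays and 3.10 to 27.8 on wild-type arrays, and bears little weight.

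Mfng encodes manic fringe. Its single probe set read 977, 729, 908 and 718 on Irf4 null arrays, against 971, 818, 828 and 957 on wild-type arrays. Irf4 null arrays held both the highest and the lowest of the 8 values. The mean signals were 833 ± 130 in Irf4 null and 893 ± 81.5 in wild type (SD, n = 4 each), and the log2 fold change was -0.11 ± 0.12 (SE; limma, adjusted p = 0.716).

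Rfng encodes radical fringe. Its brighter probe set read 472, 510, 491 and 581 on Irf4 null arrays and 477, 538, 511 and 490 on wild-type arrays, so that the group means, 513 ± 47.4 and 504 ± 26.9 (SD), differed by less than either spread. The log2 fold change was 0.023 ± 0.10 (adjusted p = 0.941), and the 95% interval ran from -0.20 to 0.25. Its other probe set was dim and untested, at 18.1 to 75.8 on Irf4 null arrays and 14.9 to 92.3 on wild-type arrays.

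Changes were also compared between the fringes within each array, which asks whether the 3 genes moved unequally. The difference of log2 fold changes was 0.071 for Lfng over Mfng (exact permutation test, two-sided, p = 0.771), -0.059 for Lfng over Rfng (exact p = 0.714) and -0.13 for Mfng over Rfng (exact p = 0.486). None of these differences exceeded the spread between arrays (adjusted p = 0.771, 0.771 and 0.729 over the 6 pairs compared).

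Adam17 encodes TACE, the sheddase of TNF and of L-selectin, which can also cut Notch. Its 3 probe sets, all designed from 1 sequence record, were each lower in Irf4 null on average, and only the dimmest passed. This probe set read 351, 360, 376 and 391 on Irf4 null arrays 1 to 4, against 478, 504, 537 and 475 on wild-type arrays 1 to 4. Every Irf4 null array lay below every wild-type array, an order found in 5.33% of all tested probe sets. It fell by 0.41 ± 0.10 on the log2 scale (SE; limma, adjusted p = 0.0438), to a signal of 370 ± 17.8 in Irf4 null, against 498 ± 29.1 in wild type (SD), a change of -25.0%. The call lies close to the threshold. With Xist status as a term the log2 fold change was -0.44 (adjusted p = 0.0809). It was -0.48 within the Xist-high and -0.41 within the Xist-low arrays. Using the marker mean of other cells as a covariate gave -0.44 (adjusted p = 0.121). It was no longer called without Irf4 null array 1, 2, 3 or 4 or wild-type array 1, 3 or 4 (adjusted p = 0.0815 to 0.119), while the log2 fold change stayed between -0.44 and -0.38.

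The Adam17 probe set of middle brightness read 1679, 1361, 1392 and 1322 on Irf4 null arrays, against 1924, 1923, 1730 and 1664 on wild-type arrays. The groups overlapped by a narrow margin, through Irf4 null array 1 and wild-type array 4, and the log2 fold change was -0.33 ± 0.10 (SE; limma, adjusted p = 0.0927). Without Irf4 null array 1 this probe set was called, at -0.41 ± 0.09 (adjusted p = 0.0428). The brightest read 2008, 2008, 2327 and 2387 on Irf4 null arrays, against 2231, 2778, 2344 and 2483 on wild-type arrays, with a wider overlap and a log2 fold change of -0.17 ± 0.09 (adjusted p = 0.398). Over the 8 arrays the dimmest probe set correlated with the others at r = 0.68 and 0.71, and the brighter ones with each other at 0.35, all on the same arrays. When the log2 values of all probe sets of a gene were averaged before the fit, Adam17 passed at -0.31 ± 0.06 (SE; limma, adjusted p = 0.0249), while 4.95% of the 10916 genes in that fit did. Whether Adam17 is counted as lower therefore depends on which of its probe sets is read, and on the arrays and the fit used.

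Adam10 encodes the protease that makes the ligand-induced cut in Notch2 on B cells and also sheds CD23. Its brightest probe set read 6411, 6234, 6614 and 6992 on Irf4 null arrays, against 6205, 6398, 6175 and 6177 on wild-type arrays. The highest 3 values were Irf4 null, the fourth lay inside the wild-type range, and the difference was small. Mean signals were 6563 ± 326 in Irf4 null and 6239 ± 107 in wild type (SD), and the log2 fold change came to 0.072 ± 0.062 (SE; limma, adjusted p = 0.622), with a 95% interval of -4.37% to 15.5% for the percent change. The other 3 probe sets had log2 fold changes of 0.013, -0.060 and 0.017 (adjusted p = 0.963, 0.913 and 0.976).

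Compared within each array, Adam10 relative to Adam17 stood higher in Irf4 null. The log2 difference between their brightest probe sets was 1.58 ± 0.08 on Irf4 null arrays and 1.34 ± 0.12 on wild-type arrays (SD, n = 4 each), and its genotype difference was 0.24. Only that difference is read, since 2 probe sets need not be equally bright at equal RNA. An exact permutation test gave p = 0.0286, the smallest that 4 against 4 arrays allow, and an adjusted p = 0.171 over the 6 pairs, so the comparison did not pass the correction, which a pair alone could not do here. With all probe sets of each gene averaged, the genotype difference was 0.32 (exact permutation test, adjusted p = 0.0857). That smaller adjusted p came from another pair, Psen2 and Ncstn, reaching the same value, since the unadjusted p could go no lower.

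**Figure D2:**
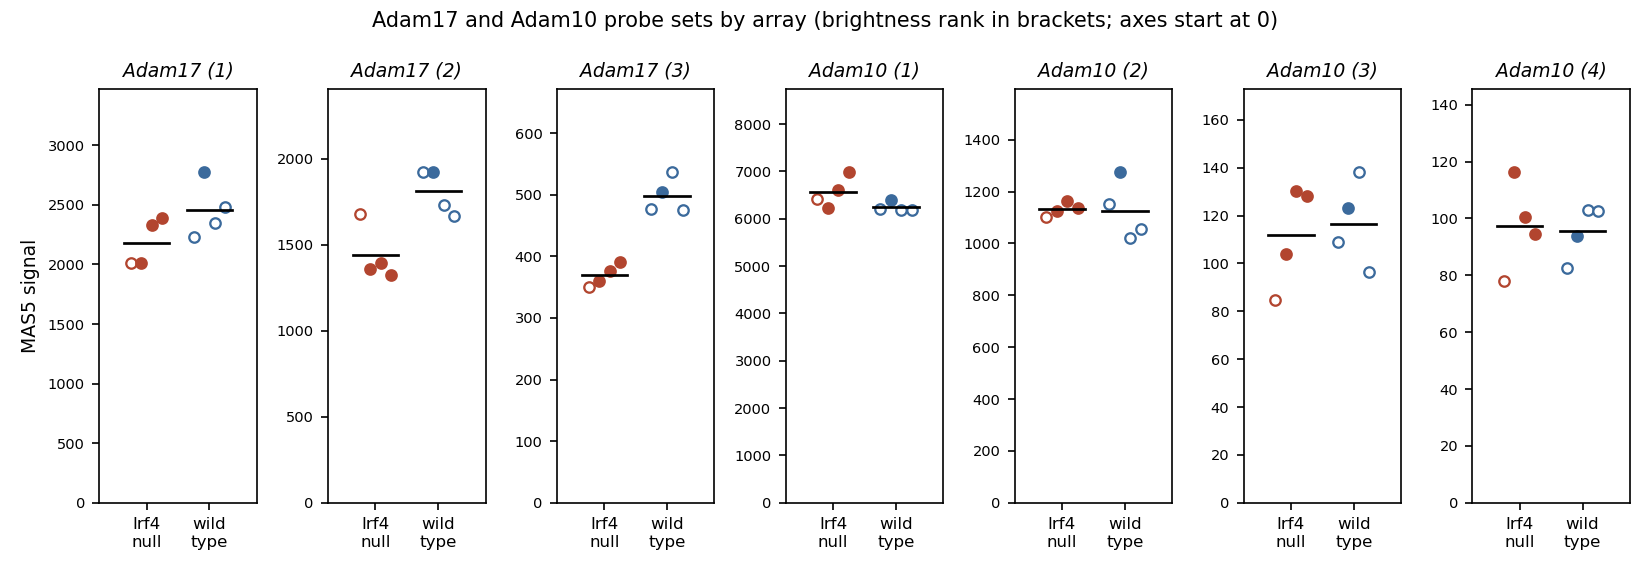
MAS5 signal of the 3 Adam17 and 4 Adam10 probe sets on each array, Irf4 null to the left of wild type, each axis starting at 0, with filled points for Xist-low and open points for Xist-high arrays and lines at the means. The groups separate in the third Adam17 panel, at 351 to 391 in Irf4 null against 475 to 537 in wild type, and overlap in the other 6.

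Psen2 encodes presenilin-2, a catalytic subunit of gamma-secretase. It read 2356, 2069, 2238 and 1928 on Irf4 null arrays, against 2233, 2247, 1926 and 2145 on wild-type arrays. The ranges were nearly the same, and the log2 fold change was 0.005 ± 0.087 (SE; limma, adjusted p = 0.984), with a 95% interval of -12.1% to 14.6%. A dim second probe set read 62.5 to 83.0 on Irf4 null arrays and 41.4 to 79.8 on wild-type arrays (log2 fold change 0.13, adjusted p = 0.812).

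Ncstn encodes nicastrin, the large glycoprotein of the complex. Its brighter probe set read 222, 241, 231 and 276 on Irf4 null arrays, against 286, 291, 364 and 267 on wild-type arrays. Irf4 null array 4 lay above wild-type array 4, and the other 3 Irf4 null arrays lay below all wild-type arrays. The log2 fold change was -0.30 ± 0.13 (SE; limma, adjusted p = 0.289), and -0.32 with Xist status as a term (adjusted p = 0.407). The dimmer probe set had -0.21 ± 0.23 (adjusted p = 0.707). Psen2 relative to Ncstn differed by 0.30 between genotypes within arrays (exact permutation test, two-sided, p = 0.2, adjusted p = 0.4). With all probe sets of each gene averaged, this pair had an adjusted p = 0.0857 by the same test.

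Both ligands gave low signals, so their folds are uncertain. Jag1 lay near the level at which probe sets were left out (42.9), and Dll1 lay above it on every array. Dll1, the Delta-like ligand of marginal zone B cell development, read 110, 130, 86.8 and 102 on Irf4 null arrays, against 126, 95.9, 150 and 179 on wild-type arrays. Wild-type arrays 1 and 2 lay inside the Irf4 null range, and arrays 3 and 4 above it. The log2 fold change was -0.30 ± 0.20 (SE; limma, adjusted p = 0.506), -0.40 within the Xist-high arrays and 0.11 within the Xist-low arrays, and the test of that difference did not pass (limma interaction, adjusted p = 0.844).

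Jag1, a Jagged ligand, has 3 probe sets. The brightest read 71.8, 55.8, 88.4 and 124 on Irf4 null arrays, against 59.2, 48.0, 67.0 and 61.6 on wild-type arrays, with overlap. Log2 fold changes were 0.39 ± 0.23, 0.30 ± 0.24 and 0.57 ± 0.30 for the probe sets in order of brightness (limma, adjusted p = 0.439, 0.588 and 0.386). All 3 means were higher in Irf4 null and none passed. Dll1 relative to Jag1 differed by -0.70 between genotypes (exact permutation test, two-sided, p = 0.114, adjusted p = 0.343). Endothelial and stromal markers, whose cells carry Notch ligands in the spleen, were mostly dim too, with 8 of 15 above the filter. Their mean log2 signal was 6.27 to 6.49 on Irf4 null arrays and 6.13 to 6.42 on wild-type arrays. One of the 8, the endothelial and platelet gene Vwf, rose by 1.03 ± 0.23 (limma, adjusted p = 0.0383; 0.0793 with Xist status as a term), and its part in the ligand signals was not tested.

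**Figure D3:**
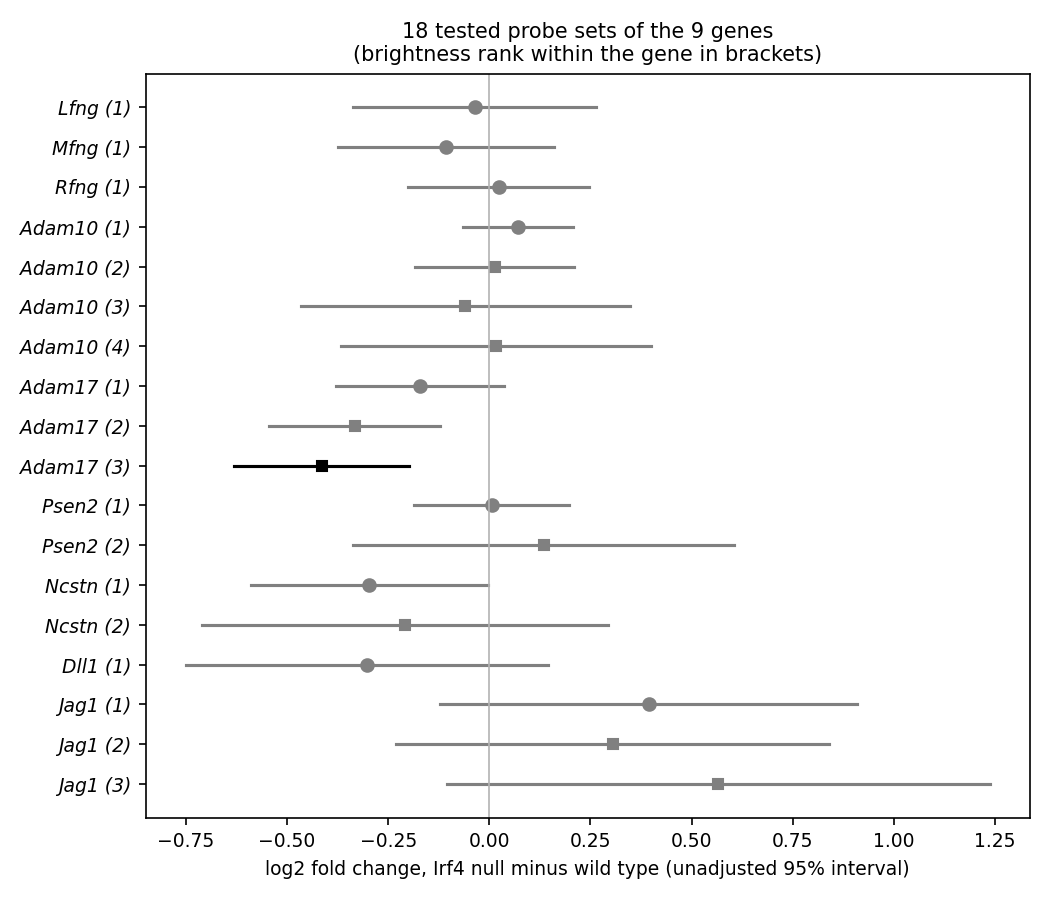
Log2 fold change of Irf4 null minus wild type with its unadjusted 95% interval for the 18 tested probe sets, circles for the brightest and squares for the other probe sets of a gene, black where the adjusted p was below 0.05. The dimmest Adam17 probe set, at -0.41, is the 1 in black, and intervals widen towards the dim ligands.

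The genotype effect was not shown to differ between Xist-low and Xist-high arrays for any of the 18 probe sets (limma interaction; 0 passed, as in 0% of all probe sets, and 1 had an unadjusted p below 0.05, against 7.54% of all). With Xist status as a term none of the 18 passed, while 2.36% of all tested probe sets did, and 3 had an unadjusted p below 0.05, against 13.8% of all. By Pearson correlation of log2 values over the 8 arrays, which share every source of array-to-array variation, the genes most like Lfng were Eefsec (r = 0.96), Zdhhc24 and Dhx57. They were Sertad1 (0.96), Ndufs7 and Puf60 for Mfng, and Tra2b (0.97), Slc35a5 and Xpo1 for Rfng. Among the proteases they were Magt1 (0.98), Ift74 and Gfi1 for Adam10, and 2810408A11Rik (0.96), Msmo1 and Lsm2 for Adam17. For the gamma-secretase subunits they were Mtif3 (0.99), Vbp1 and Pygo2 for Psen2, and Gtf2a1 (0.97), Scaf4 and Trmo for Ncstn. Inpp5e (0.96), Lpgat1 and Gm527 were most like Dll1, and Rcor1 (0.96), Rab24 and B9d2 most like Jag1. None of these like genes passed for genotype (limma, adjusted p = 0.17 to 0.957). They were picked for tracking probe sets that were not called, so that outcome was largely set by the choice.

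The rest of the pathway was read in 10 lists with 61 tested genes, of which 5 were called higher and 3 lower, against 2.67% and 1.7% of all genes. The lists were chosen with earlier results of these data known, so these counts cannot show an excess over all genes. Among 8 other glycosyltransferases of Notch EGF repeats B4galt1 alone passed, and the list median was 0.13. B4galt1 encodes a galactosyltransferase that can extend the sugar placed by a fringe. It read 1650, 1856, 1714 and 1659 on Irf4 null arrays, against 1403, 1295, 1139 and 1280 on wild-type arrays, without overlap. It rose by 0.42 ± 0.09 (SE; limma, adjusted p = 0.022), and at a log2 fold change of 0.40 was not called with Xist status as a term (adjusted p = 0.0697). The call was also lost without Irf4 null array 2, 3 or 4 or wild-type array 3 or 4.

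Of 8 tested regulators of Adam10 and Adam17, which are tetraspanins, inactive rhomboids and tissue inhibitors of metalloproteases, Rhbdf1 rose and the other 7 did not pass, with a list median of 0.27. Rhbdf1 encodes iRhom1, an inactive rhomboid that helps Adam17 mature and leave the endoplasmic reticulum. Its signal was 1147, 1089, 984 and 1031 on Irf4 null arrays, against 237, 566, 309 and 281 on wild-type arrays. All Irf4 null arrays lay far above the wild-type ones, of which array 2, the Xist-low one, was highest. It rose by 1.64 ± 0.21 (SE; limma, adjusted p = 0.00209), by 1.43 with Xist status as a term (adjusted p = 0.00487), and had a log2 fold change of 2.003 within the Xist-high and 0.85 within the Xist-low arrays, where wild-type array 2 is the only control (adjusted p = 0.0858). Rhbdf2, its relative that is used by immune cells, stood at -0.13 ± 0.12 (adjusted p = 0.634). Tspan15, a tetraspanin partner of Adam10, had 0.66 ± 0.16 and just missed the threshold (adjusted p = 0.0502).

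Of 5 other catalytic ADAM proteases Adam19 fell by 0.68 ± 0.13 (SE; limma, adjusted p = 0.0198) and 4 did not pass, with a list median of 0.15. Adam19 read 1184, 1277, 1258 and 1541 on Irf4 null arrays and 1680, 2495, 2422 and 1933 on wild-type arrays. The groups did not overlap, its second tested probe set was also called lower, and with Xist status as a term the log2 fold change was -0.81 (adjusted p = 0.00944). Without Irf4 null array 1, 2 or 3 or wild-type array 3 the call was lost (log2 fold changes of -0.63, -0.67, -0.66 and -0.61).

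Among 8 other substrates of these proteases Fcer2a fell and 7 did not pass, with a list median of 0.069. Fcer2a encodes CD23, which Adam10 sheds from B cells and which is lower on marginal zone than on follicular B cells. It fell by 1.17 ± 0.17 (SE; limma, adjusted p = 0.003), to 3662, 2622, 4402 and 2486 on Irf4 null arrays, against 6431, 6846, 7880 and 7803 on wild-type arrays. The interleukin-6 receptor gene Il6ra had -0.94 ± 0.28 (adjusted p = 0.0963), and was called lower with Xist status as a term (-1.25, adjusted p = 0.0308).

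Of 4 further cleavage genes, which are 3 gamma-secretase subunits and the Notch convertase gene Furin, none was called by limma (0 with an unadjusted p below 0.05; median log2 fold change -0.044). The smallest adjusted p-values were those of the presenilin enhancer gene Psenen, at -0.11 ± 0.08 (adjusted p = 0.538), and of Aph1b, at 0.23 ± 0.25 (adjusted p = 0.704). None of 3 other ligands passed (0 at an unadjusted p below 0.05; median 0.005), with Dll4 at -0.50 ± 0.30 (adjusted p = 0.455) and Dlk2 at 0.34 ± 0.36 (adjusted p = 0.703). None of 7 genes of ligand ubiquitylation and endocytosis passed (1, Neurl3, at an unadjusted p below 0.05; median 0.048), with the ubiquitin ligase genes Neurl3 at -0.61 ± 0.21 (adjusted p = 0.162) and Mib1 at 0.19 ± 0.12 (adjusted p = 0.475). All 4 receptors fell short as well (1, Notch2, at an unadjusted p below 0.05; median 0.22), with Notch2 at 0.22 ± 0.09 (adjusted p = 0.244) and Notch4 at 0.42 ± 0.23 (adjusted p = 0.392).

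Downstream of the cleavage, 3 of 6 tested targets were called higher and none lower, with a list median of 1.02. These were Dtx1, Hes5 and Asb2, the first a ubiquitin ligase that regulates Notch, the second a transcriptional repressor and the third a ubiquitin ligase adaptor. Dtx1, for example, read 8457 to 10104 on Irf4 null arrays and 2913 to 3828 on wild-type arrays, and rose by 1.44 ± 0.10 (SE; limma, adjusted p = 4.0e-05). Its second tested probe set was dim, at 91.0 to 153 on Irf4 null arrays and 135 to 182 on wild-type arrays, and was not called at -0.40 ± 0.18 (adjusted p = 0.295). With both averaged Dtx1 passed at 0.52 (adjusted p = 0.0145). Hes5 rose by 1.95 ± 0.30 and Asb2 by 1.94 ± 0.30 (limma, adjusted p = 0.00516 each), and the second tested Hes5 probe set was also called higher (0.99 ± 0.21, adjusted p = 0.0297). Asb2 read 916 on wild-type array 2, the Xist-low one, and 264 to 427 on the other wild-type arrays, and within the Xist-low arrays its log2 fold change was 0.90 (adjusted p = 0.18). Of 8 genes of the nuclear complex and of turnover, 1 fell, the ubiquitin ligase subunit gene Fbxw7, by 0.50 ± 0.10 (limma, adjusted p = 0.0206), with a list median of -0.30. It read 904 to 1138 on Irf4 null arrays and 1338 to 1600 on wild-type arrays, and its call was lost without Irf4 null array 2 or 4 or wild-type array 3 or 4 and with Xist status as a term (-0.46, adjusted p = 0.0662). The second tested Fbxw7 probe set was also called lower (-0.40 ± 0.08, limma, adjusted p = 0.0153).

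**Figure D4:**
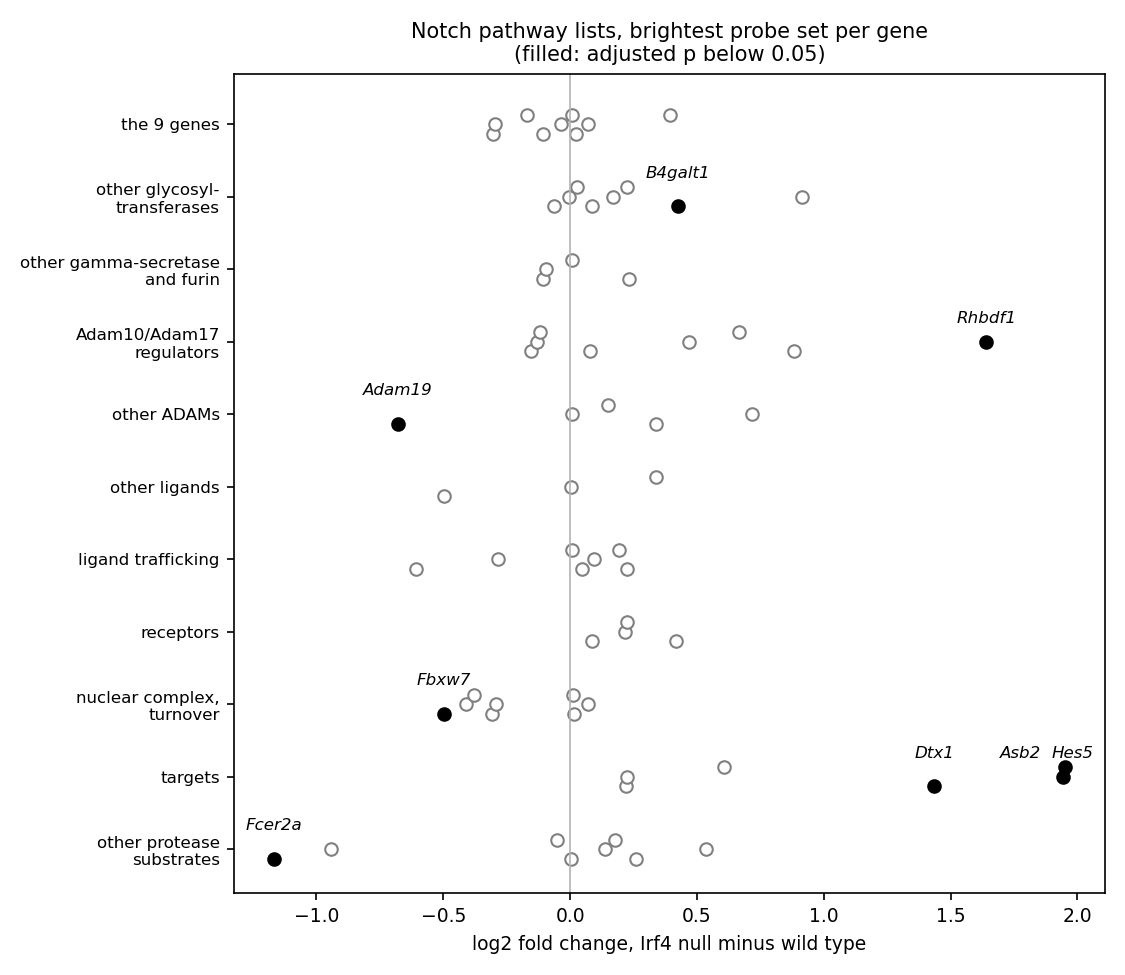
Log2 fold change of Irf4 null minus wild type for the tested genes of the set and of 10 lists of the pathway, 1 point per gene at its brightest probe set, filled and named where the adjusted p was below 0.05. The 9 genes lie between -0.30 and 0.39 with none filled, while Rhbdf1 lies at 1.64, Fcer2a at -1.17 and 3 targets between 1.44 and 1.95.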

How the data were processed

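RNA (6 µg of total RNA per sample, biotin-labelled) was measured on 1 Affymetrix mouse array per sample. The deposited values are signal intensities on a linear scale, made by the authors with MAS5 (named in the submitters' processing notes), with version and scaling target not given in the sources used here. Arrays already shared 1 trimmed mean, so they were not normalized again. Detection calls were not used here.

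Gene names came from the platform annotation (34958 with 1 symbol, 932 with several), updated through gene identifiers to the RefSeq table of GRCm38.p6 (34754 matched). After removal of 64 control probe sets, log2(signal + 16) was taken and the lowest 40% by mean were dropped, leaving 27022. Fold changes of dim probe sets are understated on this scale. The genotype test was limma 3.58.1 (lmFit, and eBayes with a trend in the variance; R 4.3.3), and p-values were adjusted over all probe sets after Benjamini and Hochberg. A gene was read at its brightest tested probe set. Within-array pairs were compared by exact permutation over 8 arrays (scipy 1.17.1).

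The genes, lists and the split by Xist (signal over 1000) were chosen with earlier results of these data known. All probe sets of the 9 genes were described, with the 3 genes most correlated with each of the 9. From each list up to 3 called genes were described, or 2 where none was called. Rhbdf2, Tspan15, Il6ra, Ms4a1 and further macrophage, neutrophil, platelet and erythroid genes were added, picked after their values were seen. On simulated data for this comparison, with 27022 probe sets, the fit recovered 0% of the smallest changes simulated (under 1.5-fold), 26% of 1.5-fold, 54% of 2-fold and 90% of 4-fold changes. Each size was planted in 50 probe sets. The simulated fit made 87 calls, against 950 in the real data. Adjusted p-values depend on the share of changed probe sets, so recovery in the real data may differ. The number of arrays limits the precision. Alternatives changed the pseudocount, filter, normalization, variance model, array weights, covariates, threshold, replicate block and arrays used. Figures were drawn with matplotlib 3.10.9.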

Additional observations from a re-analysis of the deposited data

Results flagged for a closer look

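In 4 of the 40 groups of 4 arrays checked, 1 array stood apart from its group by Dixon's 95% criterion, which chance meets in about 1 of 20 groups. For the brighter Lfng probe set Irf4 null array 1 read 383, against 276 to 291 on the other Irf4 null arrays. For the dim Lfng probe set the lowest Irf4 null array read 9.57, against 29.7 to 30.8 on the others, and the highest wild-type array read 27.8, against 3.10 to 4.47 on the others. For the brightest Adam10 probe set the highest wild-type array read 6398, against 6175 to 6205 on the others, a gap that is small beside the signal.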

How the results depend on the processing

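The count of 1 called probe set among the 9 genes was 0 with Xist status as a term, within Xist-high arrays, within Xist-low arrays, without a filter on dim probe sets, without a variance trend, with the markers of other cells as a covariate, with the replicate block and at a threshold of 0.01, and 0 to 1 when each array was left out. The Adam17 probe set behind it had a log2 fold change below 0 in all 23 alternatives and passed in 8. Without Irf4 null array 1 the 1 called probe set was another of Adam17, that of middle brightness. The count of 0 called genes stayed at 0 in 23 alternatives and was 1 (Adam17) when all probe sets of a gene were averaged. Some uncalled fold changes turned sign, and the cause was not tested. With Xist status as a term the log2 fold change was 0.061 for Lfng, 0.012 for Mfng and -0.046 for Rfng. Within Xist-high arrays it was 0.28 for Lfng, 0.091 for Mfng and -0.059 for Rfng, and within Xist-low arrays -0.032 for Rfng, -0.11 for Psen2 and 0.11 for Dll1. With arrays on a common median it was -0.039 for Rfng and -0.057 for Psen2. With the markers of other cells as a covariate it was 0.069 for Lfng, -0.026 for Rfng and -0.00032 for Psen2, and with probe sets averaged 0.34 for Lfng. With each array left out, Lfng ranged from -0.14 to 0.027, Rfng from -0.036 to 0.061, Psen2 from -0.043 to 0.055, Lfng relative to Mfng from -0.0099 to 0.17, and Lfng relative to Rfng from -0.20 to 0.022. Lfng relative to Rfng was 0.13 with probe sets averaged. No pair passed in any of the 12 alternatives, of which those leaving out an array cannot reach a permutation p below 0.05. B4galt1 lost its call in 12 of 24 alternatives, Fbxw7 in 10, Adam19 in 8, and Rhbdf1, Asb2 and Fcer2a in 1 each, within Xist-low arrays.

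Replicate numbers were not treated as pairs in the main fit. Deviations of same-numbered arrays correlated at 0.24, 0.28, -0.03 and -0.08, and 4 of 8 arrays correlated best with their own number. So few arrays, which also differ by Xist status, cannot decide whether the numbers pair them. Within Xist-high and Xist-low arrays 1 group has a lone array, assumed to vary like the others. With the replicate block the Adam17 probe set stayed at -0.41 (limma, adjusted p = 0.0717). Dim signals left 2 probe sets of Lfng and Rfng without a test.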
